A study of Homo sapiens with 6 samples.

Results

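Cytosolic ribosomal proteins are the protein parts of the ribosome outside the mitochondria, the machine that reads mRNA and joins amino acids into protein. Their genes were taken by symbol: RPL or RPS followed by digits with an optional A, L, X or Y form, together with RPLP0, RPLP1, RPLP2 and RPSA. Kinase genes of the RPS6K family, read-through names with a hyphen and pseudogenes were left out. The rule found 85 of the 17452 genes listed, 53 of the large subunit and 32 of the small subunit. The 85 comprise 77 parent genes and 8 paralogs, which are related genes, not all of them close copies, with a name ending in L or in L and a digit. Because the rule goes by name, it leaves out FAU, which encodes a ubiquitin-like fusion protein of the small subunit and is described beside the members.

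The study measured poly-A RNA by sequencing in MDA-MB-231, an established human line from a triple-negative breast carcinoma. There were 3 libraries of cells transfected with siRNA against PHF20L1 (siPHF20L1) and 3 of cells given a control siRNA (siControl). All cells were grown in L-15 medium with serum and without added CO2, and both groups come from this single line. The sources used here do not give the siRNA sequences, the harvest time or which of the named lipid reagents each sample received. Nor do they say that the replicates are independent cultures, so that p-values measure only the spread between these libraries, which may be technical.

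Values are FPKM, a fragment count divided by the length of the transcript and by the library's mapped fragments, as deposited. PHF20L1 itself was at 2.31 to 2.74 FPKM in the siPHF20L1 libraries and at 12.5 to 15.8 FPKM in the siControl libraries, so each library followed its label. Of the line's defining markers, VIM, CD44, EGFR, AXL, CAV1 and KRT18 were all above 60 FPKM in every library. VIM was at 1015 ± 7.89 FPKM in siPHF20L1 and 1624 ± 17.4 FPKM in siControl libraries. ESR1 was listed at 0 throughout and PGR and CDH1 stayed under 1 FPKM. ERBB2 and EPCAM, also listed beforehand as low or absent, were detected, at 25.81 to 31.52 FPKM and at 2.02 to 5.13 FPKM. Both were higher in siPHF20L1 libraries (limma, adjusted p = 0.00444 and 0.00067). The leukocyte gene PTPRC reached 0.87 to 1.43 FPKM over the 6 libraries. The libraries numbered 1 of both groups stood apart from the others on the second principal component, which held 10.2% of the variance, and values with and without them are given where they matter. Steps in the low values put the depth at about 17100000 to 17600000 fragments per library, if a step is 1 fragment and not a multiple of it.

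Ribosomal protein mRNAs are among the most abundant in dividing cells, and many start with a terminal oligopyrimidine tract (TOP), a run of C and T bases at the 5′ end through which mTORC1 signalling and the LARP1 protein control their translation. The proteins are needed in near-equal numbers, and copies that do not find a place in a ribosome are quickly degraded. A few act outside the ribosome. RPL5 and RPL11 with the 5S rRNA can bind the ubiquitin ligase MDM2 when ribosome assembly fails.

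The 30 bases around the annotated transcription start held a run of C and T bases in the parent genes shown here and in RPL22L1. RPL26L1, RPL7L1 and RPS27L had none. A run near an annotated start does not show that the mRNA begins with a TOP. Whether the run goes with the change in level was not tested. The windows below, from RefSeq on GRCh38.p14, run 5′ to 3′ on the transcribed strand from 15 bases before the start base, and capitals mark the longest run of at least 6 C or T bases with a base within 5 bases of the start. They are shown for RPL11 and for 4 paralogs that passed the threshold, with parent genes beside 3 of them for comparison, of which RPS27 did not pass.
RPL11: cggaagctccgCTTTCTCTTCCTgctctcc
RPL26: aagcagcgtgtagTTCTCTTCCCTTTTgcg
RPL26L1: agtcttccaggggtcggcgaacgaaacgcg
RPL22: tagttcgctcaCCTCCCTTTCTaactccgc
RPL22L1: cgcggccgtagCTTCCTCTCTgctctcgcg
RPL7L1: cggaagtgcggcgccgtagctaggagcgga
RPS27: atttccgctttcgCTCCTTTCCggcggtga
RPS27L: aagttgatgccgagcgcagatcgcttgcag

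These windows lie at chr1:23691791-23691820 on the plus strand for RPL11, chr17:8383179-8383208 on the minus strand for RPL26 and chr5:172958714-172958743 on the plus strand for RPL26L1, the first of 2 annotated starts of that gene. RPL22 lies at chr1:6199581-6199610 on the minus strand and RPL22L1 at chr3:170870181-170870210 on the minus strand. RPL7L1 lies at chr6:42879601-42879630 on the plus strand, RPS27 at chr1:153990747-153990776 on the plus strand and RPS27L at chr15:63157463-63157492 on the minus strand. Of the 67 tested members found in the table, 57 had such a run of C and T bases at 1 start or more, which is 85.1%, against 29.3% of the 9543 tested genes found. Among parent genes alone the share was 88.7% (55 of 62). Of the 5 paralogs found, RPL22L1 and RPL36AL had the run, and RPL26L1, RPL7L1 and RPS27L did not. Runs of A and G bases of the same length, which are the same feature on the opposite strand, stood at the start of 5.97% of the members found and 22% of all tested genes found. The letters CCGGAA, the core of sites for ETS factors, were present on either strand of the 300 bases given around a start in 56.7% of the members found and in 36.4% of the tested genes found. A match describes the sequence and does not show that a factor binds there.

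Ribosomal protein transcripts took up 11.2% ± 0.337 of the summed FPKM in siPHF20L1 libraries and 12% ± 0.616 in siControl libraries (SD, n = 3 each). The siPHF20L1 libraries were at 10.9%, 11.5% and 11.04%, and the siControl libraries at 11.3%, 12.2% and 12.4%. The groups overlapped, because the lowest siControl library, number 1, lay below the highest siPHF20L1 library. Between libraries of the same number the siPHF20L1 share was the lower in all 3. Between the libraries numbered 2 and 3 alone the difference was -1.03 percentage points, against -0.807 points over all libraries. Large-subunit genes made up 6.70% ± 0.160 in siPHF20L1 and 7.27% ± 0.329 in siControl libraries, and small-subunit genes 4.46% ± 0.179 in siPHF20L1 and 4.70% ± 0.288 in siControl libraries. No test was run on these sums, since the members were chosen as a group with earlier results known. In the 100 genes of highest FPKM of each library, 42 to 44 were members in siPHF20L1 libraries and 45 to 46 in siControl libraries.

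**Figure D1:**
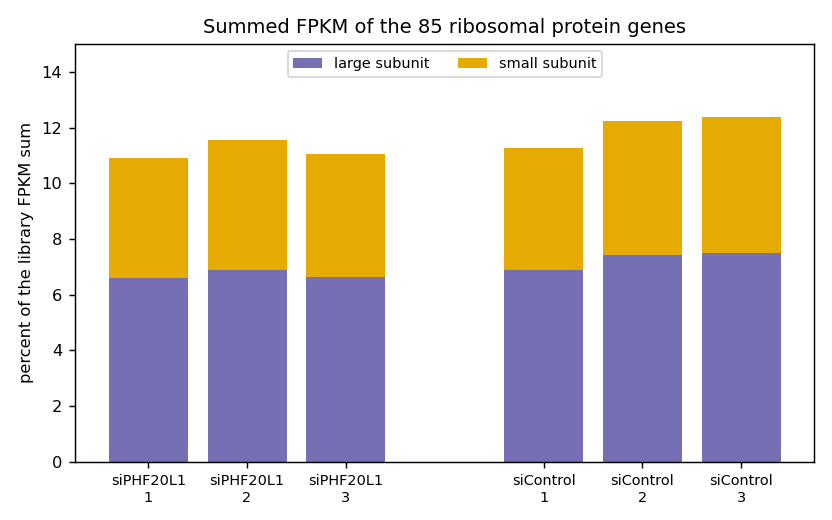
Percent of the library's summed FPKM taken by the 85 ribosomal protein genes, 1 bar per library, split into large and small subunit. The siPHF20L1 bars reach 10.9% to 11.5% and the siControl bars 11.3% to 12.4%, with siControl library 1 the lowest of its group.

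Parent genes differed widely in FPKM, although their proteins are needed in near-equal numbers. Between genes, FPKM also depends on the transcript length used and on how reads shared between copies were assigned. The part of either in this spread was not tested. In the 3 siPHF20L1 libraries they ranged from 57.9 to 2185 FPKM, and in the 3 siControl libraries from 83.3 to 2028 FPKM. The highest was RPS2, which lies where mRNA enters the small subunit, with 1788, 2185 and 2063 FPKM in siPHF20L1 and 1653, 2028 and 2027 FPKM in siControl libraries. RPL41, which encodes a very short peptide of the large subunit, followed with 1519 ± 88.6 FPKM in siPHF20L1 and 1603 ± 105 FPKM in siControl libraries (SD, n = 3 each). Neither differed past the threshold (limma, adjusted p = 0.546 for RPS2 and 0.430 for RPL41). The order of parent genes by mean FPKM was close in both groups, with a Spearman rho of 0.976 across 77 genes, which share libraries and depth and are not independent.

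Differences of 83 members were tested with limma on log2(FPKM + 1), where a gene needed at least 1 FPKM in 3 libraries and the threshold was a Benjamini-Hochberg adjusted p of 0.05 over all 11560 genes tested. The other members, RPL3L and RPL10L, copies known from muscle and testis, did not pass this filter and stayed at or below 0.15 FPKM in every library. After the knockdown 3 members were higher and 24 lower, and 56 did not pass. These are 3.61% and 28.9% of the members tested, against 34.0% higher, 24.7% lower and 58.6% either way among all genes tested. The difference was under 0.5 in size on the log2 scale in 73 of 83 members, and the matching share of all genes was not computed. Members had a median of -0.13 with quartiles of -0.25 and 0.004. Over all genes tested the median was 0.05 with quartiles of -0.22 and 0.34. A difference of at least 1 in size was called in RPL26L1, RPL7L1 and RPS27L, against 5.22% of all genes. The groups did not overlap in 3 members that were higher and 29 that were lower, against 36.7% and 27.0% of all genes, or 63.7% either way.

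These counts depended on the libraries and the scaling. With the replicate number as a block 7 members were higher and 47 lower, against 42.8% and 33.3% of all genes (76.1% either way), and in the libraries numbered 2 and 3 alone 5 were higher and 55 lower, against 40.2% and 31.0% (71.2% either way). Leaving out 1 library gave between 18 lower members, without siControl replicate 2, and 39, without siControl replicate 1, against 20.9% and 24.5% of all genes. Without siControl replicate 3 or siPHF20L1 replicate 3 there were 20, or 24.1% of the members, and the matching shares of all genes were not computed. Members had a median difference of -0.03 within the number 1 and of -0.18 within the numbers 2 and 3, whereas the median over all genes was 0.05 and 0.06. After quantile normalization, which forces equal distributions and acts most on very abundant transcripts, 11 members were higher and 19 lower, against 29.2% and 30.1% of all genes (59.2% either way). Calls for higher members thereby made up 36.7% of the member calls, against 11.1% without it, and the median moved to -0.04. With median-ratio size factors 3 were higher and 32 lower, against 30.3% and 28.6% of all genes (58.9% either way).

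**Figure D2:**
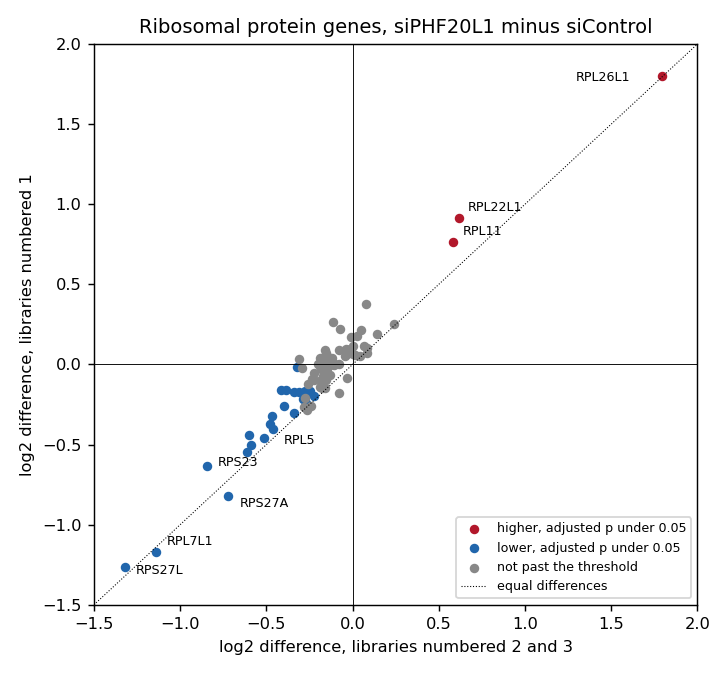
Log2 difference (siPHF20L1 minus siControl, log2(FPKM + 1) scale) of the 83 members tested, for libraries 2 and 3 on the horizontal axis and for libraries 1 on the vertical axis, coloured by the call over all libraries. Most points lie above the dotted line of equal differences, with medians of -0.18 and -0.03, while RPL26L1, RPL22L1 and RPL11 were higher and RPL7L1 and RPS27L lower on both axes.

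Large-subunit genes held all 3 of the rises and 16 of the falls among 51 tested, with a median log2 difference of -0.14. These are 5.88% higher and 31.4% lower, against 34.0% and 24.7% of all genes. The largest rise was that of RPL26L1 (Entrez 51121), a near-copy of RPL26. RPL26L1 was at 46.2, 47.9 and 47.9 FPKM in siPHF20L1 libraries and at 12.5, 13.0 and 13.3 FPKM in siControl libraries. Every siPHF20L1 library thus lay more than 3 times above every siControl library, with a log2 difference of 1.80 (SE 0.05, limma, adjusted p = 2.1e-07). RPL26 (Entrez 6154), the parent, which sits at the rim of the tunnel where the new protein leaves, went the other way. It was at 576, 529 and 502 FPKM in siPHF20L1 and at 644, 698 and 650 FPKM in siControl libraries, with all siPHF20L1 values below all siControl values (log2 difference -0.31, SE 0.07, limma, adjusted p = 0.00535).

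RPL22L1 (Entrez 200916) also rose while its parent fell. RPL22L1 was at 5.57, 5.33 and 4.22 FPKM in siPHF20L1 and at 2.49, 2.71 and 2.80 FPKM in siControl libraries. The groups did not overlap, at a log2 difference of 0.71 (SE 0.10, limma, adjusted p = 0.000362). RPL22 (Entrez 6146), an RNA-binding protein of the large subunit known in mouse to repress its paralog's mRNA, was at 72.6, 73.2 and 67.8 FPKM in siPHF20L1 and at 84.3, 89.2 and 83.3 FPKM in siControl libraries. RPL22 was lower by a log2 difference of -0.26 (SE 0.06, limma, adjusted p = 0.00391).

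Other paralogs fell. RPL7L1 (Entrez 285855), a homolog of RPL7, was at 45.8, 46.0 and 43.3 FPKM in siPHF20L1 and at 104, 101 and 98.5 FPKM in siControl libraries. Every siPHF20L1 value lay under every siControl value, with a log2 difference of -1.15 (SE 0.05, limma, adjusted p = 1.18e-06). Its relative RPL7 (Entrez 6129) fell less, to 332 ± 13.2 FPKM in siPHF20L1 against 405 ± 23.8 FPKM in siControl libraries (SD, n = 3 each, log2 difference -0.28, limma, adjusted p = 0.00508). RPS27L (Entrez 51065), a near-copy of RPS27, had the largest fall of all members. It was at 14.6, 11.3 and 10.8 FPKM in siPHF20L1 and at 36.4, 28.9 and 29.3 FPKM in siControl libraries (log2 difference -1.30, SE 0.12, limma, adjusted p = 4e-05). RPS27 (Entrez 6232) itself was at 1129 ± 115 FPKM in siPHF20L1 and 1154 ± 182 FPKM in siControl libraries, with overlapping groups and a log2 difference of -0.02 (95% interval -0.31 to 0.26, limma, adjusted p = 0.884).

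RPL36AL (Entrez 6166) fell to 179 ± 16.8 FPKM in siPHF20L1, against 224 ± 9.40 FPKM in siControl libraries (SD, n = 3 each, log2 difference -0.33, limma, adjusted p = 0.00535). RPL36A (Entrez 6173) was at 223 ± 12.2 FPKM in siPHF20L1 and 219 ± 16.8 FPKM in siControl libraries (limma, adjusted p = 0.764). RPL39L (Entrez 116832), a copy of the tunnel protein RPL39 known from testis and cancer lines, was at 33.2 ± 3.59 FPKM in siPHF20L1 and 33.1 ± 4.38 FPKM in siControl libraries, with a 95% interval of -0.24 to 0.26 for the log2 difference (limma, adjusted p = 0.951). RPL39 (Entrez 6170) was at 184 ± 14.5 FPKM in siPHF20L1 and 179 ± 4.33 FPKM in siControl libraries (limma, adjusted p = 0.626). Of the 6 paralogs tested, 2 rose, 3 fell and 1 did not pass, and of their 6 parents 3 fell and 3 did not pass. Among all genes tested 34.0% were higher and 24.7% lower, or 58.6% either way, and 6 genes are too few to set against these shares.

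**Figure D3:**
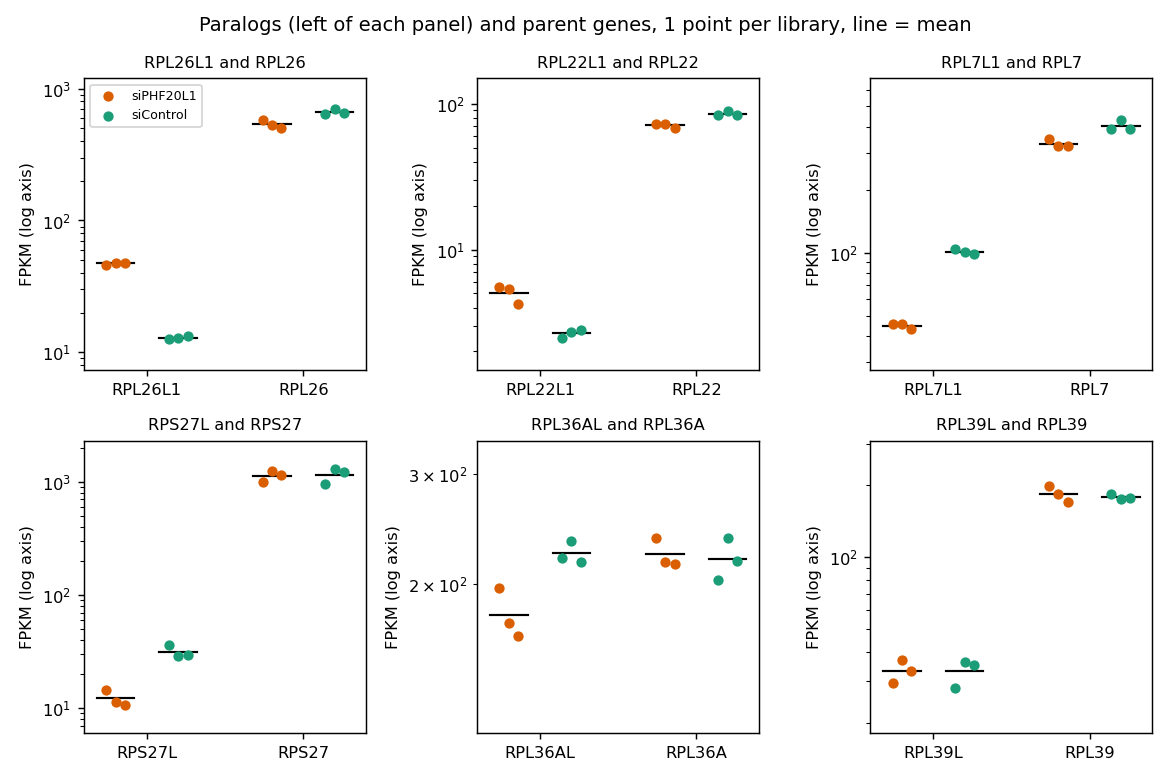
FPKM (log axis) of the 6 tested paralogs (left in each panel) and their parent genes (right), 1 point per library with siPHF20L1 left of siControl, line at the mean. RPL26L1 and RPL22L1 lie higher and RPL7L1, RPS27L and RPL36AL lower in all 3 siPHF20L1 libraries, while RPL39L overlaps between groups.

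The level of a paralog as a percent of its parent does not depend on a scaling factor per library. RPL26L1 stood at 8.02%, 9.07% and 9.54% of RPL26 in siPHF20L1 libraries and at 1.94%, 1.86% and 2.04% in siControl libraries. RPL22L1 stood at 7.68%, 7.28% and 6.22% of RPL22 in siPHF20L1 libraries and at 2.95%, 3.04% and 3.36% in siControl libraries. Both ratios were higher in all siPHF20L1 libraries.

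RPL7L1 was at 13.2%, 14.2% and 13.4% of RPL7 in siPHF20L1 libraries and at 26.7%, 23.3% and 25.2% in siControl libraries. RPS27L was at 1.45%, 0.916% and 0.940% of RPS27 in siPHF20L1 libraries and at 3.84%, 2.25% and 2.38% in siControl libraries. These ratios, and that of RPL36AL to RPL36A, were lower in all siPHF20L1 libraries. In the exact two-sided permutation test of the log2 ratios, each of these 5 pairs gave p = 0.1, the smallest that 3 against 3 libraries allow, with an adjusted p of 0.12 over 6 pairs. The design cannot reach 0.05. RPL39L to RPL39 gave p = 0.6 in the same exact test.

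Within the 5S RNP, the particle of 5S rRNA with RPL5 and RPL11, the mRNAs of both proteins changed in opposite directions. RPL11 (Entrez 6135) was at 687, 715 and 671 FPKM in siPHF20L1 libraries and at 404, 466 and 458 FPKM in siControl libraries. The groups did not overlap and RPL11 rose by 0.64 on the log2 scale (SE 0.07, limma, adjusted p = 0.000101), the sole rise among the 77 parent genes in the main fit. Among these parent genes 9 were higher after quantile normalization and 3 in the libraries numbered 2 and 3 alone. RPL5 (Entrez 6125) was at 459, 423 and 407 FPKM in siPHF20L1 libraries and at 608, 579 and 566 FPKM in siControl libraries. All siPHF20L1 values of RPL5 were lower, with a log2 difference of -0.44 (SE 0.07, limma, adjusted p = 0.000548). The ratio of RPL11 to RPL5 in FPKM was 1.495, 1.69 and 1.65 in siPHF20L1 libraries and 0.664, 0.804 and 0.809 in siControl libraries, so the order of the genes by FPKM was reversed. Between genes FPKM also depends on the transcript length used and on shared reads. The values therefore show a change of the ratio, and not which mRNA was the more abundant.

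Beside RPL7L1, RPS27L and RPL5, the largest falls past the threshold were those of RPS23, RPS27A, RPL38, RPS9, RPL32 and RPL7A. RPS23 (Entrez 6228), a protein of the decoding centre, was at 70.1, 72.8 and 57.9 FPKM in siPHF20L1 and at 109, 120.0 and 114 FPKM in siControl libraries (log2 difference -0.77, SE 0.09, limma, adjusted p = 0.000113). RPS27A (Entrez 6233), which is made as a fusion with ubiquitin, was at 145, 160.4 and 158 FPKM in siPHF20L1 and at 256, 265 and 261 FPKM in siControl libraries (log2 difference -0.75, SE 0.06, limma, adjusted p = 1.41e-05). In both genes the siPHF20L1 libraries were all lower than the siControl libraries.

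RPL38 (Entrez 6169), known in mouse for translation of Hox mRNAs, fell to 188 ± 5.78 FPKM in siPHF20L1 against 283 ± 11.6 FPKM in siControl libraries (SD, n = 3 each, limma, adjusted p = 4.32e-05). RPS9 (Entrez 6203), of the mRNA entry side of the small subunit, fell to 272 ± 17.0 FPKM against 402 ± 32.4 FPKM in siControl libraries (limma, adjusted p = 0.000336). RPL32 (Entrez 6161) fell to 249 ± 11.5 FPKM against 365 ± 20.1 FPKM in siControl libraries (limma, adjusted p = 0.000141). RPL7A (Entrez 6130), which hosts several small nucleolar RNAs in its introns, was lowest in the libraries numbered 1 of both groups. It was at 642, 848 and 825 FPKM in siPHF20L1 and at 883, 1221 and 1170.1 FPKM in siControl libraries (log2 difference -0.50, limma, adjusted p = 0.0172). That call was lost after quantile normalization (limma, adjusted p = 0.0521) and without siControl replicate 2 (0.0675) or siControl replicate 3 (0.0575), within a range of 1.51e-06 to 0.0684 over 15 alternatives.

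**Figure D4:**
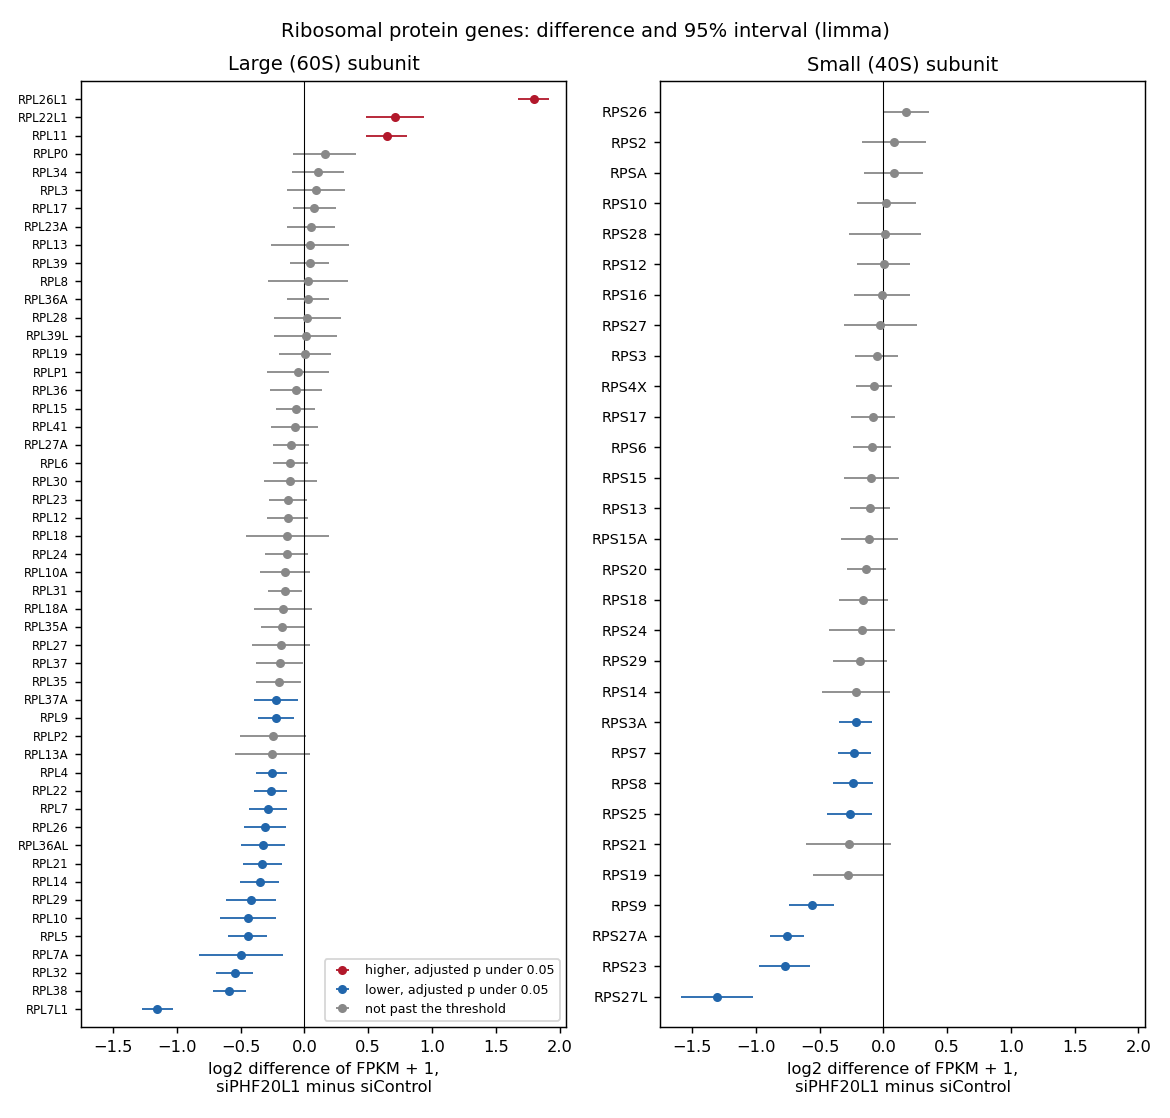
Log2 difference of FPKM + 1 (siPHF20L1 minus siControl) with 95% intervals from limma for 81 of the 83 tested members, large subunit left and small subunit right, ordered by size. RPL26L1 (1.80), RPL22L1 (0.71) and RPL11 (0.64) stand out on the higher side, RPL7L1 (-1.15) and RPS27L (-1.30) on the lower side, and the median over all 83 is -0.13.

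Small-subunit genes had no rise and 8 falls among 32 tested, with a median of -0.11. The falls are 25%, near the 24.7% lower of all genes. With the replicate block 2 were higher and 16 lower, which are 6.25% and 50%, against 42.8% and 33.3% of all genes. RPS6 (Entrez 6194), the classical phosphorylation target of the S6 kinases downstream of mTORC1, was at 738 ± 43.5 FPKM in siPHF20L1 and 783 ± 15.1 FPKM in siControl libraries, with overlapping groups (limma, adjusted p = 0.275). RPS6 passed as lower once the libraries numbered 1 were left out (limma, adjusted p = 0.0119, range 0.0119 to 0.721 over 15 alternatives). RPSA (Entrez 3921), also known as a laminin receptor, was at 857 ± 91.8 FPKM in siPHF20L1 and 811 ± 78.7 FPKM in siControl libraries (limma, adjusted p = 0.523), and it passed as higher after quantile normalization (limma, adjusted p = 0.0115, range 0.0115 to 0.979). RPS19 (Entrez 6223), the gene most often mutated in Diamond-Blackfan anaemia, was at 477, 605 and 588 FPKM in siPHF20L1 and at 574, 727 and 724 FPKM in siControl libraries. The groups of RPS19 overlapped, because siControl library 1 lay below siPHF20L1 libraries 2 and 3 (log2 difference -0.28, limma, adjusted p = 0.0771). With the replicate block RPS19 passed as lower (limma, adjusted p = 5.99e-05), within a range of 5.99e-05 to 0.223 over 15 alternatives.

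Of 10 genes listed for Diamond-Blackfan anaemia, an inherited failure of red cell formation from ribosomal protein mutations, RPL11 was higher and RPL5, RPL26 and RPS7 were lower, and 6 did not pass. At the rim of the exit tunnel, RPL22 and RPL26 of 8 genes were lower, and neither passed with the libraries numbered 2 and 3 averaged. The shares of lower genes, 30% and 25% in these lists, are near the 24.7% of all genes. On the mRNA exit side, RPS14, RPS26 and RPS28 did not pass the threshold. With the replicate block RPS26 passed as higher and RPS14 as lower. These role lists were drawn up after the values had been seen.

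The stalk, the flexible arm that recruits the GTPases of translation, is formed by RPLP0, RPLP1 and RPLP2, and none of the 3 passed the threshold. RPLP0 (Entrez 6175) was at 1258, 1543 and 1452 FPKM in siPHF20L1 and at 1105, 1351 and 1358 FPKM in siControl libraries (limma, adjusted p = 0.237). RPLP2 (Entrez 6181) was at 638, 798 and 774 FPKM in siPHF20L1 and at 764, 879 and 981 FPKM in siControl libraries (limma, adjusted p = 0.0942). In both genes the groups overlapped and the libraries numbered 1 were the lowest of their group. With the replicate block RPLP0 passed as higher and RPLP2 as lower (limma, adjusted p = 0.00929 and 0.000745), within ranges of 0.00107 to 0.584 and 0.000745 to 0.355 over 15 alternatives. RPLP1 (Entrez 6176) was at 934 ± 107 FPKM in siPHF20L1 and 966 ± 94.6 FPKM in siControl libraries (limma, adjusted p = 0.700).

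None of the 8 members of highest mean FPKM passed the threshold, RPS2, RPL41, RPLP0, RPS27, RPL8, RPL12 and RPS15 among them. Their mean log2 differences lay between -0.13 for RPL12 and 0.16 for RPLP0. With the block RPL12 passed as lower (limma, adjusted p = 0.0417, range 0.00175 to 0.541 over 15 alternatives). After quantile normalization RPS27 passed as higher with a log2 difference of 0.21 (limma, adjusted p = 0.0467, range 0.0467 to 0.987), as did RPL8 (limma, adjusted p = 0.0227, range 0.0227 to 0.976). RPL3 (Entrez 6122), a catalytic-centre protein, did not pass without the block and did with it as higher (limma, adjusted p = 0.468 and 0.0441, range 0.0441 to 0.992).

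Ribosomal protein genes have many processed pseudogenes, and GENCODE 29 names 1144 for 77 of the 85 members, with a median of 8. None is listed in the files under such a symbol, and the sources used here do not say how reads that match several places were treated. FPKM of single members are therefore uncertain where copies share reads. GENCODE 29 names no pseudogene for RPL26L1, RPL22L1 or RPS27L, 3 for RPL11, 12 for RPL7L1 and 35 for RPL5. The transcripts listed for tested members were short, with a median length of 818 nt, against 2836 nt over the tested genes that had a length.

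FAU, the ubiquitin-like fusion of the small subunit, was at 279 ± 39.6 FPKM in siPHF20L1 and 262 ± 40.02 FPKM in siControl libraries (limma, adjusted p = 0.577). RACK1, a scaffold on the small-subunit head, fell to 1161 ± 101 FPKM in siPHF20L1 against 1404 ± 156 FPKM in siControl libraries (log2 difference -0.27, limma, adjusted p = 0.0473), with overlapping groups. The RACK1 call was lost under 7 of 15 alternatives, the leaving out of siControl replicate 2 or 3 or siPHF20L1 replicate 1 or 3 among them, with a range of 0.000441 to 0.981 and a log2 difference of -0.002 after quantile normalization.

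Of 24 translation and related genes listed as carrying TOP mRNAs, FAU and RACK1 included, 4 were higher and 11 lower, with a median of -0.11. The calls are 62.5% of the list, near the 58.6% of all genes, with 16.7% higher and 45.8% lower, against 34.0% and 24.7%. EIF3F, a subunit of initiation factor eIF3, rose to 290 ± 21.9 FPKM in siPHF20L1 against 117 ± 7.70 FPKM in siControl libraries (log2 difference 1.30, limma, adjusted p = 3.06e-06). Its partners EIF3H and EIF3E fell, to 136 ± 5.26 FPKM against 221 ± 9.07 FPKM in siControl libraries and to 162 ± 7.21 FPKM against 215 ± 11.9 FPKM in siControl libraries (limma, adjusted p = 1.99e-05 and 0.000665). The nucleolar chaperone gene NPM1 fell by 0.44 on the log2 scale, while HNRNPA1 and the elongation factor gene EEF2 rose by 0.31 and 0.32 (limma, adjusted p = 0.000588, 0.00165 and 0.0262). The EEF2 call was lost under 7 of 15 alternatives, among them the leaving out of siControl replicate 1 or 2 or siPHF20L1 replicate 2 or 3, with a range of 2.96e-05 to 0.117.

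Of 22 dedicated chaperones, import factors and late assembly factors, 7 were higher and 7 lower, with a median of -0.004. These are 31.8% each way, near the 34.0% higher and 24.7% lower of all genes. SBDS, which helps release the anti-association factor eIF6 from new large subunits, rose to 125 ± 4.52 FPKM in siPHF20L1 against 70.2 ± 2.14 FPKM in siControl libraries (limma, adjusted p = 5.97e-06). TSR2, the chaperone of RPS26, rose to 30.2 ± 2.49 FPKM against 17.2 ± 0.509 FPKM in siControl libraries (limma, adjusted p = 3.05e-05). ZNF622, a late large-subunit factor, rose to 23.5 ± 1.68 FPKM against 13.7 ± 1.13 FPKM in siControl libraries (limma, adjusted p = 7.94e-05). HSPA14 of the ribosome-bound chaperone complex, the export adaptor gene NMD3 and the small-subunit kinase gene RIOK2 fell by 0.68, 0.49 and 0.41 on the log2 scale (limma, adjusted p = 3.27e-05, 0.00176 and 0.0081).

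In the mTORC1 branch, 6 of 15 tested genes were higher and 4 lower, with a median of 0.02, and DEPTOR did not pass the filter. The shares of 40% higher and 26.7% lower are near the 34.0% and 24.7% of all genes. LARP1, which binds TOP mRNAs, rose to 80.5 ± 4.09 FPKM in siPHF20L1 against 57.3 ± 3.87 FPKM in siControl libraries (limma, adjusted p = 0.000333). MLST8 and AKT1S1, subunits of the mTORC1 complex, rose by 0.47 and 0.28 (log2; limma, adjusted p = 0.00755 and 0.00395). RHEB, the activator of mTORC1, fell to 78.6 ± 1.07 FPKM against 117 ± 4.14 FPKM in siControl libraries (limma, adjusted p = 3.16e-05). The S6 kinase gene RPS6KB1 and the RHEB inhibitor gene TSC2 fell by 0.34 and 0.32 on the log2 scale (limma, adjusted p = 0.00417 and 0.011).

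Among 13 tested genes of the ribosomal protein checkpoint and of quality control on stalled ribosomes, 7 were lower and 5 did not pass, with a median of -0.21, and CDKN2A did not pass the filter. The lower genes are 53.8%, against 24.7% of all genes. HBS1L, a factor that splits stalled ribosomes, fell to 4.61 ± 0.416 FPKM in siPHF20L1 against 11.1 ± 0.606 FPKM in siControl libraries (limma, adjusted p = 9.47e-06). MDM2 fell to 4.80 ± 0.656 FPKM against 8.17 ± 1.19 FPKM in siControl libraries, and its relative MDM4 to 5.72 ± 0.552 FPKM against 7.72 ± 0.816 FPKM in siControl libraries (limma, adjusted p = 0.00124 and 0.00812).

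Of 13 transcription factors known at ribosomal protein promoters, the MYC network included, 4 were higher and 2 lower, with a median of 0.08. These are 30.8% and 15.4%, against 34.0% and 24.7% of all genes. The repressor gene ZBTB7A rose to 32.9 ± 0.694 FPKM in siPHF20L1 against 16.1 ± 0.659 FPKM in siControl libraries (limma, adjusted p = 2.95e-06). MNT, a MYC antagonist, and MYC itself rose by 0.60 and 0.36 on the log2 scale (limma, adjusted p = 9.68e-05 and 0.000717). TBPL1 and TBP, which encode a TBP-like factor and the TATA-binding protein, fell by 0.44 and 0.22 (log2; limma, adjusted p = 0.000586 and 0.021). The TBP call was lost under 6 of 15 alternatives, with a range of 0.000313 to 0.134, the leaving out of siControl replicate 1 or 2 or siPHF20L1 replicate 2 or 3 among them. With the replicate block 6 of the 13 were higher and 4 lower, against 42.8% and 33.3% of all genes.

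For comparison, 20 of 78 mitochondrial ribosomal protein genes, which build the separate ribosome of the mitochondrion, were higher and 17 lower, with a median of -0.01. That is 25.6% and 21.8%, against 3.61% and 28.9% of the cytosolic genes and 34.0% and 24.7% of all genes. After quantile normalization 20.5% of the mitochondrial and 13.3% of the cytosolic genes were higher, against 29.2% of all genes. Lower were 28.2% of the mitochondrial and 22.9% of the cytosolic genes, against 30.1% of all genes. On the lower side the order of the gene groups was thus the opposite of that without it. The difference between the gene groups was not tested.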

How the data were processed

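The deposited values are FPKM per gene and library, per the file headers, with 2 decimals. Tools listed without role or order are TopHat2 2.1.1, Bowtie 0.12.2 and HTSeq 0.6.0, with the build GRCh37, per the submitters' processing notes. The kit marks strand, per the labels' protocols. The sources used here do not give the annotation, the strand setting or the handling of multi-mapping reads. A date stood in place of 26 symbols, which were taken from the reference table by Entrez identifier.

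Tests used limma 3.58.1 (R 4.3.3) on log2(FPKM + 1), with an intensity trend and no block, two-sided, on genes with at least 1 FPKM in at least 3 of 6 libraries, with Benjamini-Hochberg adjustment over all of them. Log2 differences understate low genes. Paralog ratios used exact permutation tests (scipy 1.17.1). The fit was also run on simulated data with independent noise and few changed genes. Those data lacked the shared offset of the libraries numbered 1, so that run cannot speak for the calls here. Same-numbered libraries deviated together from their group means, with correlations of 0.734, 0.436 and 0.419 for the numbers 1, 2 and 3, above the 0.1 set as the limit for pairing. The pairing rests on the numbers in the titles and these correlations. However, siPHF20L1 2 with siControl 3 gave 0.49 and siPHF20L1 3 with siControl 2 gave 0.307. The correlations for the numbers 2 and 3 therefore do not tell same-numbered libraries from others. Whether the libraries are paired was not settled, and the main fit did not use the pairing.

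Named members were the 8 of highest mean FPKM, the 8 largest rises and falls past the threshold, paralog pairs, the stalk, RPL5, RPL11, RPS6, RPSA and RPS19; in other lists, the 3 largest rises and falls, with FAU and RACK1. A few of these genes are not reported here. Members and lists were chosen with earlier results of these data known. No genome of the authors' build was used. Depth was estimated from steps in the values, so no counting intervals are given.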

Additional observations from a re-analysis of the deposited data

How the results depend on the processing

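Of 17 named members past the threshold, all kept their direction under 15 alternatives, and 247 of 255 calls were kept. No called value reversed, but RPS27, not past the threshold otherwise, was higher after quantile normalization (0.21). Called members numbered 27 (54 with the replicate block, 60 in the libraries numbered 2 and 3 alone, 15 with these averaged), and the median went to -0.036 after quantile normalization. Large-subunit calls numbered 19 (36, 39 and 11 in the same alternatives) and small-subunit calls 8 (18, 21 and 4). With the libraries numbered 2 and 3 averaged, calls were 6 for the TOP list, 6 for mTORC1, 3 for the checkpoint list and 23 for mitochondrial genes, against 15, 10, 8 and 37. The averaged fit has fewer values per group, and the share of all genes called in it was not computed. Its lower counts, those of the members included, therefore have no baseline. The block gave 10 calls among the transcription factors, against 6. It changed the calls given beside its values above, those of the members counted there and of other genes in the lists, and none of the named members past the threshold. Leaving out 1 library gave 21 to 42 called members, 16 to 28 of the large and 5 to 14 of the small subunit, 9 to 15 TOP genes and 5 to 9 checkpoint genes. The matching shares of all genes called either way were not computed, so these ranges are not particular to the groups. The log2 ratio of RPL39L to RPL39, -0.03 over all libraries, lay between -0.162 and 0.103 when 1 library was left out. The cause of these changes was not tested. FPKM carry no counts, and low members such as RPL22L1 rest on few fragments.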

Other observations

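The read-through names that the rule leaves out were listed separately. RPL36A-HNRNPH2 was at 17.5 ± 0.741 FPKM in siPHF20L1 and 20.8 ± 1.99 FPKM in siControl libraries (SD, n = 3 each) (limma, adjusted p = 0.0272, range 0.00131 to 0.0999 over 15 alternatives). RPL17-C18orf32 was at 1.76, 2.75 and 0.48 FPKM in siPHF20L1 and at 4.30, 2.49 and 3.14 FPKM in siControl libraries (limma, adjusted p = 0.0556, range 0.00866 to 0.129). RPS10-NUDT3 was at 0.41 FPKM in siPHF20L1 library 2 and listed at 0 in the other libraries. These names share exons with RPL36A, RPL17 and RPS10, and the sources used here do not say how shared reads were assigned.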
